A study of Mus musculus with 9 samples.

Results

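Insulin-like growth factor 1 (Igf1), its receptor (Igf1r) and 6 IGF binding proteins (Igfbp2, Igfbp3, Igfbp4, Igfbp5, Igfbp6 and Igfbp7) were measured in mouse embryoid body cells with and without NRF1 overexpression. The 8 genes were taken by symbol from the 56691 genes of the count tables, a rule that uses no measured value, although the genes were proposed with earlier results of these data known. RNA-seq was performed on 9 libraries of BVSC cells, pluripotent stem cells with a Blimp1-mVenus (BV) and a Stella-CFP reporter that had been differentiated as embryoid bodies and sorted on BV into BV+ cells, named primordial germ cell-like cells in the study, and BV- somatic cells. All cells carried the doxycycline (DOX)-inducible vector p20 and received 1.5 µg/ml DOX from day 2 to day 5. The vector held the Nrf1 coding sequence (NRF1 OE) in 2 BV+ and 3 BV- libraries and was empty (Ctrl) in 2 BV+ and 2 BV- libraries. DOX was given to the whole embryoid body, before BV+ and BV- cells were sorted. The study's methods call its duplicates or replicates biological, but neither they nor the labels say that these libraries came from separate cultures, so p-values measure the spread between these libraries, which may be technical.

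IGF1 binds the receptor tyrosine kinase IGF1R, which signals through IRS adaptors to PI3K and AKT and promotes growth and survival. The binding proteins are secreted and hold IGFs outside the cell, where they prolong their life, limit their access to the receptor or, once cut by proteases such as PAPPA, set them free. IGFBP7 binds IGFs weakly, and IGFBP6 prefers IGF2. NRF1 is a transcription factor that binds GC-rich sites in the promoters of many mitochondrial and housekeeping genes.

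Library totals were 13702162 to 19625460 counts. Nrf1 itself was at 97.6 ± 2.61 CPM, counts scaled to the library total (mean ± SD, n = 2), in BV+ NRF1 OE and 90.7 ± 0.509 CPM (n = 2) in BV+ Ctrl cells, a log2 fold change of 0.10 that did not pass the test (edgeR adjusted p = 0.489). In BV- cells the level was 122 ± 3.17 CPM (n = 3) under NRF1 OE and 102 ± 4.26 CPM (n = 2) under Ctrl, which is 0.26 higher on the log2 scale (edgeR adjusted p = 0.0718). Neither difference passed, so the counts did not show the overexpression, and NRF1 OE is used here as the label of the libraries. Of 8 germ cell markers, 0 were called higher in BV+ than in BV- cells under Ctrl, and under NRF1 OE 1 was higher and 3 were lower. The higher gene was Itgb3, a surface integrin used to sort primordial germ cell-like cells, at 44.7 to 54.0 CPM against 18.4 to 22.2 CPM (edgeR adjusted p = 9.12e-05), and under Ctrl it was at 23.3 to 25.4 CPM against 14.8 to 15.2 CPM (edgeR adjusted p = 0.0577). Prdm1, which encodes BLIMP1, was at 53.3 to 62.8 CPM in the BV+ libraries and 42.4 to 62.0 CPM in the BV- libraries. Dppa3, which encodes STELLA, was lower in BV+ than in BV- cells under NRF1 OE, by a log2 fold change of -0.65 (edgeR adjusted p = 0.00536). The summed CPM of the 8 markers was 408 to 410 in BV+ NRF1 OE, 370 to 376 in BV+ Ctrl, 454 to 547 in BV- NRF1 OE and 387 to 394 in BV- Ctrl libraries. As a set, these markers did not show the germ cell name of the BV+ cells, and the groups are called BV+ and BV- here.

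Igfbp2 dominated the binding proteins in every library. Its level per transcript length, in the FPKM values of the deposited files, was 182.12 to 438.72, and it made up 86.8% to 95.5% of the summed FPKM of the 6 binding proteins. Igfbp3 followed by the median over libraries, with 7.36 to 10.37 FPKM and the smallest ratio of highest to lowest level among the binding proteins. In both BV+ NRF1 OE libraries, Igfbp4 and Igfbp5 were above Igfbp3. Igfbp4 spanned 2.87 to 22.2 FPKM and Igfbp5 1.05 to 18.93 FPKM, and both were highest in BV+ NRF1 OE libraries. Igf1r, at 4.28 to 7.32 FPKM, was expressed in all libraries, whereas Igf1 was at 0.03 to 0.31 FPKM, from 4 to 61 counts. Igfbp7 (0.09 to 1.98 FPKM) and Igfbp6 (0.05 to 0.54 FPKM) were also near the detection limit.

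The order of levels differed between groups below Igfbp2. In BV- Ctrl cells, the mean FPKM fell from Igfbp3 (8.29 ± 0.665, SD) over Igf1r (5.02 ± 0.0283) and Igfbp4 (3.20 ± 0.460) to Igfbp5 (1.38 ± 0.460), and no neighbours in this order overlapped. The same order held by means in BV- NRF1 OE cells, but Igf1r (4.28 to 5.16 FPKM) and Igfbp4 (3.22 to 4.99 FPKM) overlapped. In BV+ Ctrl cells, Igfbp4 (7.66 ± 0.0566 FPKM) and Igfbp5 (7.54 ± 0.205 FPKM) did not differ beyond their spread and stood between Igfbp3 (8.91 ± 0.601 FPKM) and Igf1r (6.27 ± 0.0566 FPKM). In BV+ NRF1 OE cells, Igfbp4 (19.0 ± 4.48 FPKM) and Igfbp5 (16.8 ± 2.97 FPKM) overlapped each other and stood above Igfbp3 (10.0 ± 0.516 FPKM) and Igf1r (7.08 ± 0.339 FPKM). Without Igfbp2, the summed FPKM of the binding proteins was 53.12 and 42.72 in BV+ NRF1 OE, 26 and 24.51 in BV+ Ctrl and 12.69 to 17.02 in the 5 BV- libraries.

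**Figure D1:**
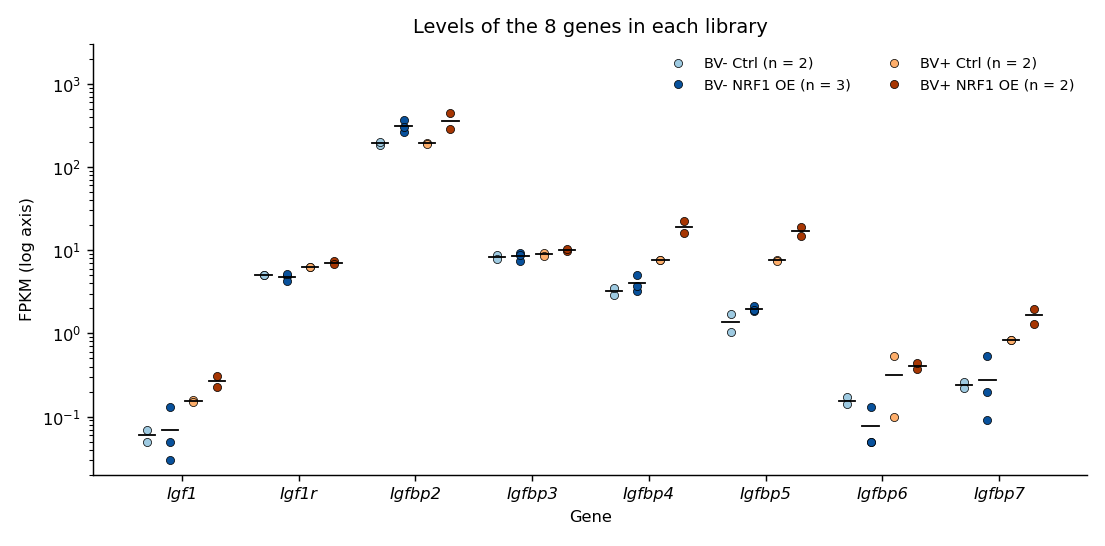
FPKM (log axis) of the 8 genes, with a point for each library and a line at each group mean (BV- Ctrl n = 2, BV- NRF1 OE n = 3, BV+ Ctrl n = 2, BV+ NRF1 OE n = 2). Igfbp2 lies above 182 FPKM in all libraries, and Igfbp4 and Igfbp5 are higher in both BV+ groups than in the BV- groups.

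NRF1 is a DNA-binding factor. Igfbp2, Igfbp4 and Igfbp5 were higher in the NRF1 OE than in the Ctrl libraries of BV+ cells, although Nrf1 itself was not called there. The bases before the start sites of the genes were therefore read from RefSeq (GRCm38.p6, 250 bases, all 8 genes matched, Igfbp2 with 2 start sites). The 6 letters TGCGCA, a form of the NRF1 core sequence, were searched on both strands and found in Igfbp3 only, at base -185 from the start site, while 6.43% of 32851 mouse promoters of the same length hold them. No other form of the core was searched, such as CGCGCA, which stands in the printed Igfbp4 and Igfbp3 sequences. The TATA box letters TATAAA were found in Igfbp4 at -28 and, on the opposite strand, in Igfbp6 at -148 (12.4% of promoters). The motifs do not overlap each other. These matches are descriptions of the letters in a window and do not show binding or its absence. The study itself lists Igfbp5 among the genes bound by NRF1 in its ChIP-seq of BV+ cells. The 4 sequences printed here belong to the 3 genes that rose and to Igfbp3, which held TGCGCA and passed no test. They are in lower case, 5′ to 3′ on the strand of the gene, with TGCGCA and TATAAA in capitals. They stand at chr1:72824230-72824479 (+, the first start site of Igfbp2), chr11:99040994-99041243 (+, Igfbp4), chr1:72874866-72875115 (-, Igfbp5) and chr11:7213924-7214173 (-, Igfbp3) of GRCm38.p6, another build than the GRCm39 of the counts.
Igfbp2: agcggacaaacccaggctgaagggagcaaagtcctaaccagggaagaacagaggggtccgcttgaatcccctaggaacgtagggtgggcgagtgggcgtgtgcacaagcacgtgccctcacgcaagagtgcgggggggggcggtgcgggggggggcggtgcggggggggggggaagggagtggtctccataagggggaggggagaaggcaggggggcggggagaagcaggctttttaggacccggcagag
Igfbp4: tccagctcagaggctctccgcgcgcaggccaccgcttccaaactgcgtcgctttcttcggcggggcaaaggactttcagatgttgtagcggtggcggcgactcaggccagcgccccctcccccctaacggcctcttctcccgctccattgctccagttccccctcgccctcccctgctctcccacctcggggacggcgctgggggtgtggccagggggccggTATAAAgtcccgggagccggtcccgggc
Igfbp5: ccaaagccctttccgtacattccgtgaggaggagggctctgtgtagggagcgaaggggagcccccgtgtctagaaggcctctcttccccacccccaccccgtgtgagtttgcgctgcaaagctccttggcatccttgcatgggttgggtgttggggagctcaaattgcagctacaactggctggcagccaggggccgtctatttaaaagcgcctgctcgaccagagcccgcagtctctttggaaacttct
Igfbp3: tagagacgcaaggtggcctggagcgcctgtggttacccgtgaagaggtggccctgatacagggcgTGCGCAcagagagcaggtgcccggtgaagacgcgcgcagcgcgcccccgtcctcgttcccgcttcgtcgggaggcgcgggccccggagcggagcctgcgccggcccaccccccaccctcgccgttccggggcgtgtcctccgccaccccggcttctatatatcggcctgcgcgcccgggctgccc
Their GC content was 67.2% for Igfbp2, 69.2% for Igfbp4, 58.8% for Igfbp5 and 73.2% for Igfbp3, against a median of 52.4% over all promoters. Igfbp4 and Igfbp5, the pair with the most alike pattern among the 7 genes tested, shared neither TGCGCA nor TATAAA in these windows. Igf1r had the promoter richest in CpG of the 8, with 42 CpG dinucleotides against a median of 6.

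Counts were tested with edgeR in a single fit of the 9 libraries, and a gene was called at an adjusted p under 0.05 over 16903 genes. Of the 8 genes, 7 passed the filter on low counts and Igfbp6 did not, with 8 and 9 counts in BV+ NRF1 OE, 9 and 2 in BV+ Ctrl, 1, 2 and 1 in BV- NRF1 OE and 3 and 3 in BV- Ctrl libraries. Igfbp6 differences were not detectable at this depth. Igfbp7 reached the filter's 0.573 CPM in all 4 BV+ libraries and in 1 of 5 BV- libraries, so it passed through the group in which it was high.

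The first comparison asked how BV+ and BV- cells differed under the empty vector. Igfbp5 and Igfbp4 were higher in BV+ cells, by 5.34-fold and 2.35-fold. Of the 7 genes tested, 2 were higher and 0 lower, where 1.1% of all genes tested were higher and 0.0237% were lower. Igfbp2, Igfbp3, Igfbp7, Igf1 and Igf1r did not pass the test.

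Igfbp5, a binding protein that also attaches to the extracellular matrix, was at 45.1 and 43.3 CPM in the BV+ Ctrl libraries and at 6.24 and 10.2 CPM in the BV- Ctrl libraries. The groups did not overlap, and the log2 fold change was 2.42 (SE 0.211, edgeR adjusted p = 0.000552). The study named Igfbp5 as bound by NRF1 and upregulated with NRF1 OE in BV+ cells, from these libraries and ChIP-seq. The study also reports real-time RT-PCR and ChIP-PCR on its targets. The rise of Igfbp5 with NRF1 OE is thus not independent evidence, and that comparison shares the BV+ Ctrl libraries with this contrast. Igfbp4, a secreted binding protein that inhibits IGF action until PAPPA cuts it, was at 32.9 and 33.2 CPM in BV+ Ctrl and 12.5 and 15.5 CPM in BV- Ctrl libraries, a log2 fold change of 1.23 (SE 0.218, edgeR adjusted p = 0.0189). When any 1 of the 4 Ctrl libraries was left out, Igfbp4 lost its call (log2 fold changes of 1.09 to 1.37, edgeR adjusted p of up to 0.292) and 1 gene, Igfbp5, was called. In these sorted bulk samples, fewer cells of a type and less RNA per cell cannot be told apart.

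Igfbp7 was at 0.983 and 0.997 CPM in BV+ Ctrl and 0.315 and 0.267 CPM in BV- Ctrl libraries, a log2 fold change of 1.75 (SE 0.617) that did not pass (edgeR adjusted p = 0.382). Igf1, the ligand, was at 1.57 and 1.47 CPM in BV+ Ctrl and 0.693 and 0.481 CPM in BV- Ctrl libraries, a log2 fold change of 1.37 (SE 0.533, edgeR adjusted p = 0.491). Both genes rested on 28 counts or fewer per Ctrl library. Their libraries did not overlap between the groups, but how many of all genes separated in this way was not counted. Igf1r differed by 0.30 (SE 0.123), Igfbp3 by 0.08 (SE 0.145) and Igfbp2 by -0.03 (SE 0.194) on the log2 scale. By the study's threshold, an unadjusted p under 0.05 and a log2 fold change beyond 0.58, Igf1, Igfbp4, Igfbp5 and Igfbp7 passed, 4 of 7, or 3 of 6 without Igfbp7, against 4.85% of all genes that were higher by it.

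With NRF1 OE, the same contrast held more calls. Igfbp5, Igfbp4, Igfbp7, Igf1 and Igf1r were higher in BV+ than in BV- cells, 5 of 7 genes tested, or 4 of 6 without Igfbp7, with 0 lower, where 9.9% of all genes tested were higher and 3.85% were lower. By the study's threshold 4 of 7, or 3 of 6 without Igfbp7, were higher, Igf1r not among them, against 11.4% of all genes. This contrast shares no library with that under Ctrl, whereas each NRF1 OE comparison that follows shares its libraries with both.

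Igfbp5 was at 115 and 88.2 CPM in BV+ NRF1 OE libraries and at 11.4, 12.9 and 11.8 CPM in BV- NRF1 OE libraries. No BV- library came near the BV+ range, and the difference was 8.46-fold, or 3.08 on the log2 scale (SE 0.180, edgeR adjusted p = 2.84e-06). Igfbp4 was at 99.1 and 69.8 CPM against 14.5, 22.2 and 17.1 CPM, a 4.72-fold difference and a log2 fold change of 2.24 (SE 0.190, edgeR adjusted p = 1.88e-05). Both kept their calls when each of the 9 libraries was left out in turn. The remaining 3 genes did not, and without BV+ NRF1 OE replicate 1 the number of called genes was 2.

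Igf1r, the receptor, was at 124 and 114 CPM in BV+ NRF1 OE libraries and 84.5, 72.5 and 89.6 CPM in BV- NRF1 OE libraries. The libraries did not overlap, and the log2 fold change of 0.54 (SE 0.111, edgeR adjusted p = 0.00793) was the smallest among the called genes. Igf1 was at 3.14 and 2.23 CPM against 1.26, 0.295 and 0.533 CPM, a 3.74-fold difference (SE 0.433 on the log2 scale, edgeR adjusted p = 0.0134) from 61 and 41 against 21, 4 and 9 counts. Igfbp7 was at 2.42 and 1.58 CPM against 0.241, 0.663 and 0.118 CPM, a log2 fold change of 2.61 (SE 0.496, edgeR adjusted p = 0.00511). Without BV+ NRF1 OE replicate 1, the edgeR adjusted p was 0.0957 for Igf1r, 0.135 for Igf1 and 0.0786 for Igfbp7. Igfbp7 passed the filter through the BV+ libraries, so its call adds nothing to the count. The exons of Igfbp7 overlap those of Polr2b, an RNA polymerase II subunit gene on the opposite strand, and the strand setting of the counting is not given in the sources used here, so reads of the pair cannot be told apart. Polr2b differed by 0.06 on the log2 scale in this contrast.

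Igfbp2 and Igfbp3 showed the other pattern. Igfbp2 overlapped between BV+ and BV- cells under NRF1 OE and differed by 0.20 (SE 0.176, edgeR adjusted p = 0.491) on the log2 scale. With offsets for transcript GC content and length in the fit, it differed by 0.31 (SE 0.0924, edgeR adjusted p = 0.0308). With these offsets 6 of the 7 genes were called, Igfbp7 among them. Of all 16903 genes, 3569 were then called, against 2325 without offsets. Igfbp3, which carries most IGF in blood, was at 30.5 and 32.3 CPM against 23.5, 29.2 and 28.4 CPM, a log2 fold change of 0.22 (SE 0.131, edgeR adjusted p = 0.310).

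**Figure D2:**
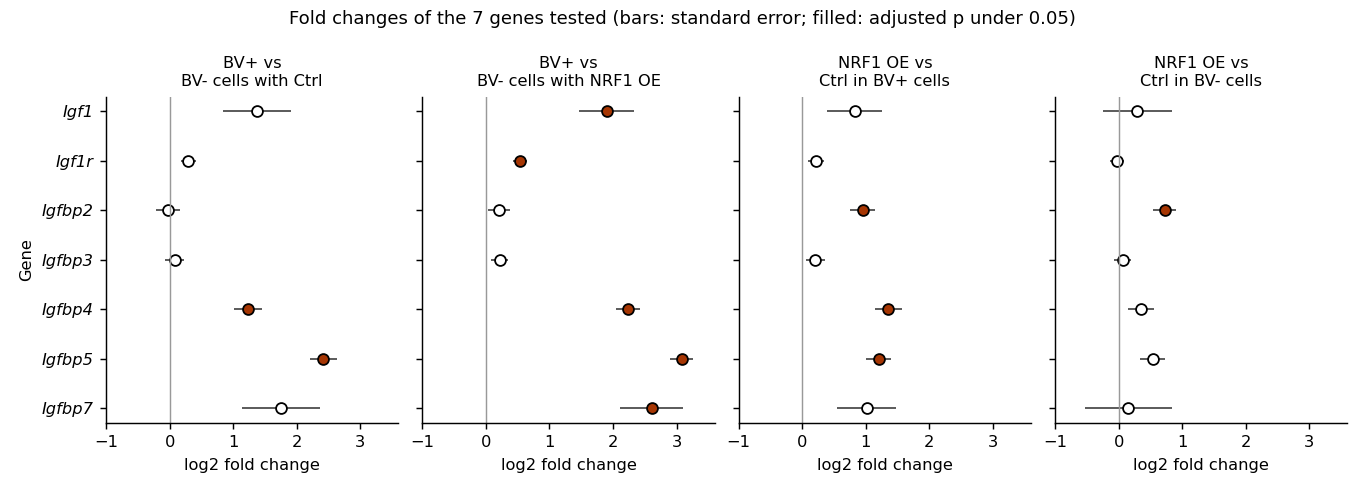
Log2 fold changes of the 7 genes tested in 4 comparisons, with bars of 1 standard error and filled points at an edgeR adjusted p under 0.05. Igfbp4 and Igfbp5 are filled in the BV+ against BV- contrasts and for NRF1 OE in BV+ cells, and Igfbp2 is filled for NRF1 OE in both kinds of cells.

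Collagen genes among the markers of fibroblast or mesenchyme moved with Igfbp4 and Igfbp5. The summed CPM of 10 such markers was 718 and 460 in BV+ NRF1 OE libraries, 138 and 142 in BV+ Ctrl libraries, 25.4 to 32.0 in BV- NRF1 OE and 25.3 to 31.2 in BV- Ctrl libraries. Col1a2, a collagen I chain gene, led the sum in the BV+ libraries, with 368 to 602 CPM in BV+ NRF1 OE, 99.8 to 102 CPM in BV+ Ctrl, 9.95 to 17.1 CPM in BV- NRF1 OE and 7.25 to 10.9 CPM in BV- Ctrl libraries. Of the 8 markers tested, 3 were higher in BV+ than in BV- cells under Ctrl (Col1a1, Col1a2 and Col3a1) and 5 under NRF1 OE, where Pdgfrb and Postn were added. Postn reached the filter's 0.573 CPM in BV+ libraries only, so its call adds nothing to the count. Pdgfra, Thy1 and Twist1 did not pass in either contrast, and Thy1 had a mean of 3.85 CPM in BV+ Ctrl, 4.09 in BV- Ctrl, 2.95 in BV+ NRF1 OE and 4.32 in BV- NRF1 OE cells. Dcn and Lum, which mark mature fibroblasts, did not pass the filter, with at most 0.515 and 0.109 CPM in a library, and Lum was at 0 in both BV- Ctrl libraries. Endothelial Cdh5 and Kdr were also higher in BV+ cells under both vectors. Under NRF1 OE Emcn and Tie1 were added, 4 of 6 endothelial markers, with 0 lower. Cdh5 was at no more than 0.587 CPM in BV- libraries, and Emcn reached 0.573 CPM in BV+ NRF1 OE libraries only. Both passed the filter through BV+ libraries, so their calls add nothing to the count. The summed CPM of the 6 was 154 to 191 in all libraries, but most of it was Pecam1, at 100 to 171 CPM, which hides the others. Pecam1 went the other way, without a call. It was at 100 to 145 CPM in BV+ and 155 to 171 CPM in BV- NRF1 OE libraries. Under Ctrl it was at 139 to 151 CPM in BV+ and 160 to 166 CPM in BV- libraries. The part of these cells in the Igfbp4 and Igfbp5 results was not tested.

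**Figure D3:**
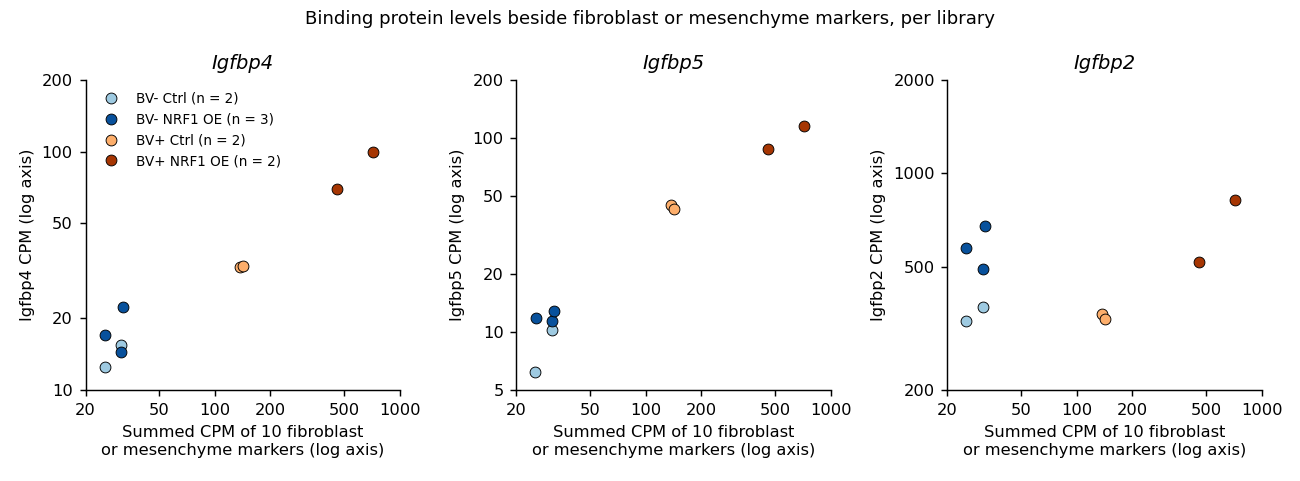
CPM of Igfbp4, Igfbp5 and Igfbp2 (vertical, log axis) against the summed CPM of 10 fibroblast or mesenchyme markers (horizontal, log axis), with a point for each of the 9 libraries coloured by group. Igfbp4 and Igfbp5 are low where the marker sum is 25.3 to 32.0 and highest where it is 718, and Igfbp2 is also highest there, at 819 CPM, but takes 333 to 677 CPM at the low marker sums.

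The next comparison asked what NRF1 OE changed in BV+ cells. Igfbp4, Igfbp5 and Igfbp2 rose, by 2.56-fold, 2.30-fold and 1.94-fold. These were 3 of 7 genes tested, with 0 lower, where 6.24% of all genes tested were higher and 1.78% were lower. The same 3 genes were higher by the study's threshold, against 9.78% of all genes. The receptor and the ligand did not pass the test.

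Igfbp4 was at 99.1 and 69.8 CPM in BV+ NRF1 OE and at 32.9 and 33.2 CPM in BV+ Ctrl libraries, a log2 fold change of 1.35 (SE 0.209, edgeR adjusted p = 0.0126). Igfbp5 was at 115 and 88.2 CPM against 45.1 and 43.3 CPM, a log2 fold change of 1.20 (SE 0.190, edgeR adjusted p = 0.0127). Igfbp2, the most abundant binding protein gene here, was at 819 and 518 CPM against 352 and 339 CPM, a log2 fold change of 0.95 (SE 0.195, edgeR adjusted p = 0.0226). Both NRF1 OE libraries stood above both Ctrl libraries for all 3 genes, and replicate 1 stood above replicate 2. The Igfbp2 libraries of BV+ NRF1 OE were farther apart than the Ctrl libraries, with an SD of 213 CPM against 8.76 CPM. The summed fibroblast or mesenchyme markers were also higher in replicate 1 of BV+ NRF1 OE, and 4 of 8 tested were higher with NRF1 OE (Col1a1, Col1a2, Col3a1 and Pdgfrb) and 1, Pdgfra, was lower. Of 6 endothelial markers, 3 were higher with NRF1 OE, Cdh5 (log2 fold change 1.59), Emcn (2.11) and Kdr (1.49), and 0 lower. Emcn reached the filter's 0.573 CPM in the BV+ NRF1 OE libraries only, so its call adds nothing to the count. The part of either cell type was not tested.

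These calls depended on which library was left out. Without BV+ NRF1 OE replicate 1, BV+ Ctrl replicate 1 or BV+ Ctrl replicate 2, 0 of the 7 genes were called by edgeR, as were 0 of all genes tested, and the highest adjusted p was 0.256 for Igfbp2, 0.169 for Igfbp4 and 0.170 for Igfbp5. Without BV+ NRF1 OE replicate 2 it was 3 of the 7 and 2028 of all genes. Across the 9 fits that each lacked 1 library, Igfbp4 differed by 1.08 to 1.59 and Igfbp5 by 1.00 to 1.38 on the log2 scale. The log2 fold change of Igfbp2 was 0.59 without BV+ NRF1 OE replicate 1 and 1.25 without replicate 2.

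Igfbp7 was at 2.42 and 1.58 CPM with NRF1 OE against 0.983 and 0.997 CPM with Ctrl in BV+ cells, a log2 fold change of 1.01 (SE 0.468, edgeR adjusted p = 0.158). Igf1 was at 3.14 and 2.23 CPM against 1.57 and 1.47 CPM, a log2 fold change of 0.82 (SE 0.438, edgeR adjusted p = 0.209). Igf1r was at 124 and 114 CPM against 102 and 103 CPM, a log2 fold change of 0.21 (SE 0.122, edgeR adjusted p = 0.237). Igfbp3 was at 30.5 and 32.3 CPM against 28.6 and 25.9 CPM, a log2 fold change of 0.21 (SE 0.144, edgeR adjusted p = 0.325). None of these 4 genes passed the test. Each NRF1 OE library was above each Ctrl library for all 4, but how many of all genes separated in this way was not counted, so no weight is given to it.

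In BV- cells, Igfbp2 alone among the 7 genes tested was higher with NRF1 OE than with Ctrl, by 1.65-fold, a call lost with GC and length offsets. Of all genes tested, 10.2% were higher and 6.98% were lower. By the study's threshold Igfbp2 was also the only 1 of 7, against 5.73% of all genes. Igfbp2 was at 492, 677 and 575 CPM with NRF1 OE and at 333 and 370 CPM with Ctrl. All 3 NRF1 OE libraries stood above both Ctrl libraries, and the log2 fold change was 0.72 (SE 0.180, edgeR adjusted p = 0.0338). When BV- NRF1 OE replicate 3 or any 1 of the 4 Ctrl libraries was left out, 0 of the 7 genes were called. Of all genes tested, 35 were called without BV- NRF1 OE replicate 3, 1 without BV- Ctrl replicate 2 and 0 without any of the other 3 Ctrl libraries. Igfbp2 had an edgeR adjusted p of up to 0.311 and log2 fold changes of 0.57 to 0.83 across the 9 fits.

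Igfbp5 came next in BV- cells, with 11.4, 12.9 and 11.8 CPM with NRF1 OE against 6.24 and 10.2 CPM with Ctrl, a log2 fold change of 0.54 (SE 0.200, edgeR adjusted p = 0.0754). Igfbp4 was at 14.5, 22.2 and 17.1 CPM against 12.5 and 15.5 CPM, a log2 fold change of 0.35 (SE 0.204, edgeR adjusted p = 0.223). The libraries of Igfbp5 did not overlap and those of Igfbp4 did. The other 4 genes overlapped as well, with log2 fold changes of 0.30 for Igf1, 0.15 for Igfbp7, 0.07 for Igfbp3 and -0.03 for Igf1r.

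The Igfbp2 difference between NRF1 OE and Ctrl moved with a base composition trend of the libraries. Over 14253 genes, the GC content of the transcripts was compared with how far a library lay from the mean of all libraries, and the rank correlation (Spearman's rho) was -0.561 to -0.467 in the 4 Ctrl libraries, 0.308 and 0.00674 in the BV+ NRF1 OE libraries and 0.0445, 0.666 and 0.531 in the BV- NRF1 OE libraries. The transcripts of Igfbp2 had 62.1% GC, the highest of the genes tested here, against 55.1% for Igfbp4, 50.3% for Igfbp5 and 38.0% for Igf1. The trend over all genes at the GC content and length of Igfbp2 differed by 0.44 (log2) between NRF1 OE and Ctrl in BV+ cells and by 0.47 in BV- cells. With this trend taken into the fit as offsets, Igfbp2 differed by 0.49 (SE 0.102, edgeR adjusted p = 0.0111) in BV+ cells and by 0.25 (SE 0.0939, edgeR adjusted p = 0.117) in BV- cells. The base composition trend cannot be told apart from the vector, since all Ctrl libraries stood on the same side of it.

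Igfbp4 and Igfbp5 moved less with these offsets. In BV+ cells their log2 fold changes with NRF1 OE were 1.17 (SE 0.145, edgeR adjusted p = 0.00107) and 1.28 (SE 0.173, edgeR adjusted p = 0.00127). Igf1r and Igf1, with transcripts of lower GC content, passed the test in BV+ cells with the offsets, with log2 fold changes of 0.43 (SE 0.0965, edgeR adjusted p = 0.0142) and 1.27 (SE 0.364, edgeR adjusted p = 0.0377). In BV- cells the log2 fold change of Igf1r went from -0.03 to 0.30, and 0 of the 7 genes were called.

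**Figure D4:**
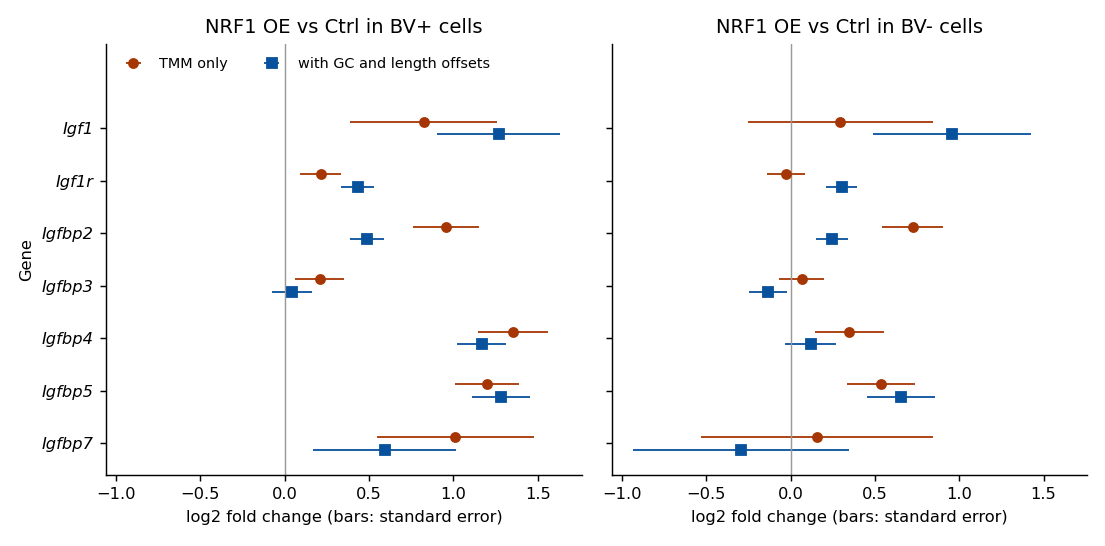
Log2 fold changes of the 7 genes tested for NRF1 OE against Ctrl in BV+ and BV- cells (bars, 1 standard error), with TMM factors only (circles) and with GC and length offsets as well (squares). Igfbp2 moves from 0.95 to 0.49 in BV+ cells and from 0.72 to 0.25 in BV- cells, while Igfbp5 moves from 1.20 to 1.28 in BV+ cells.

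Whether NRF1 OE acted differently in BV+ and BV- cells was tested as the difference between both effects. Igfbp4 had the lowest unadjusted p of the 7 genes, with a difference of 1.01 on the log2 scale (SE 0.289, unadjusted p = 0.00485, edgeR adjusted p = 0.584). Igfbp5 differed by 0.66 (SE 0.274, unadjusted p = 0.0331, edgeR adjusted p = 0.825) and Igfbp2 by 0.23 (SE 0.262, edgeR adjusted p = 0.983). By edgeR 0 of the 7 genes and 0 of all genes tested (0%) were called, 932 genes had an unadjusted p under 0.05, and DESeq2 called 29. By the study's threshold 2 of 7 genes, Igfbp4 and Igfbp5, had a higher effect in BV+ cells, against 3.56% of all genes. Without BV- NRF1 OE replicate 2, Igfbp4 was called, with an adjusted p of 0.0381. The rise of Igfbp4 and Igfbp5 in BV+ cells was therefore not shown to differ from the change in BV- cells.

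Other genes of the pathway were read from a list of 40, of which 36 passed the filter. Under Ctrl, 2 were higher in BV+ than in BV- cells and 0 lower (1.1% and 0.0237% of all genes tested, and a median log2 fold change of 0.03 against -0.01). These were Igf2, the second ligand, with a log2 fold change of 3.43 (SE 0.598, edgeR adjusted p = 0.0175), and Grb10, an adaptor that dampens IGF1R and insulin receptor signalling, with 2.00 (SE 0.280, edgeR adjusted p = 0.00552). Both genes are imprinted. Igf2 was at 5.18 and 4.93 CPM in BV+ Ctrl libraries and at 0.315 and 0.587 CPM in BV- Ctrl libraries, so the level of this ligand was low in both groups. Grb10 was at 157 and 158 CPM against 27.7 and 50.6 CPM. Without BV- Ctrl replicate 1, 0 of the 36 genes were called, and without any 1 of the other 3 Ctrl libraries 1 was.

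Under NRF1 OE, 8 of the 36 genes were higher in BV+ cells and 1 was lower (9.9% and 3.85% of all genes tested, median 0.06 against -0.0049). Of all genes tested, 2325 were called here, and 3182 without BV- NRF1 OE replicate 1. Igf2 (4.39) and Grb10 (3.24) again had the largest log2 fold changes, followed by the protease gene Pappa (2.85), which rested on 14 and 11 counts in BV+ and 1, 2 and 1 counts in BV- NRF1 OE libraries. Pappa reached the filter's 0.573 CPM in the BV+ NRF1 OE libraries only, so its call adds nothing to the count. The PI3K regulatory subunits Pik3r3 (1.08) and Pik3r1 (0.71), the insulin receptor Insr (0.71) and the adaptors Shc1 (0.59) and Irs2 (0.51) were also higher. Igfbpl1, an IGFBP-like gene, was lower, with a log2 fold change of -0.57. Igf2r, the receptor that clears IGF2, was at 298 to 311 CPM in BV+ and 218 to 268 CPM in BV- NRF1 OE libraries and did not pass (edgeR adjusted p = 0.0525). The number called was 3 without BV+ NRF1 OE replicate 1 and 14 without BV- NRF1 OE replicate 1.

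With NRF1 OE in BV+ cells, 3 of the 36 genes rose and 0 fell (6.24% and 1.78% of all genes tested, median 0.10 against 0.04). Igf2 rose by 1.50 (SE 0.411, edgeR adjusted p = 0.0480), Grb10 by 1.10 (SE 0.268, edgeR adjusted p = 0.0368) and the adaptor Shc1 by 0.68 (SE 0.156, edgeR adjusted p = 0.0321) on the log2 scale. Igf2 was at 19.4 CPM in replicate 1 and 9.09 CPM in replicate 2 of BV+ NRF1 OE. The calls over all genes also moved with the library left out, from 1355 with all 9 libraries. They were 665 without BV- NRF1 OE replicate 3, 2370 without its replicate 1 and 4957 without its replicate 2. Without BV+ NRF1 OE replicate 1 or either BV+ Ctrl library, 0 of the 36 were called. The count was 1 without BV- NRF1 OE replicate 3 or BV- Ctrl replicate 1, 7 without BV+ NRF1 OE replicate 2, 6 without BV- NRF1 OE replicate 1 and 13 without BV- NRF1 OE replicate 2.

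In BV- cells, 5 of the 36 genes rose with NRF1 OE and 5 fell (10.2% and 6.98% of all genes tested, median -0.08 against 0.01), and 8 of these 10 belong to the PI3K and AKT arm, which holds 16 of the 36. On the log2 scale, the kinase genes Akt1 (0.58) and Akt2 (0.54) and the subunit Pik3r2 (0.46) rose, whereas the catalytic subunit Pik3ca (-0.71), the regulatory subunit Pik3r1 (-0.73) and the kinase Pdpk1 (-0.60) were among those that fell. Igfals, which encodes the partner of IGF and IGFBP3 in the ternary complex, rose by 1.06 from 1.64 to 3.44 CPM, and Htra1, a protease that cuts binding proteins, by 0.69 on the log2 scale. With GC and length offsets, 2 of the 36 were called, where 1443 of all genes tested were called. Without BV- NRF1 OE replicate 1, 5847 of all 16902 genes tested were called, against 2910 with all libraries. Without BV- NRF1 OE replicate 3 or any 1 of the 4 Ctrl libraries, 0 of the 36 were called, and without BV- NRF1 OE replicate 1 it was 17.

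Over the 9 libraries, Igfbp4 and Igfbp5 had the most alike patterns of log2 CPM among the 7 genes (Pearson's r = 0.972). Igfbp4 with Igfbp7 (r = 0.929) and Igf1 with Igf1r (r = 0.924) followed, while Igfbp2 stood apart with r of 0.126 to 0.498 to the others. These points share libraries, groups and the base composition trend, and the values are descriptions. Among all genes tested with a mean of at least 5 CPM, the nearest to Igfbp4 were Unc5b (r = 0.998), a netrin receptor, Sort1 (r = 0.997) and Des (r = 0.996), the muscle intermediate filament gene. The nearest to Igfbp5 were Cdh6 (r = 0.997), Greb1 (r = 0.994) and Bgn (r = 0.993), a matrix proteoglycan gene. For Igfbp2 they were Agap3, Gnb2 and 5031439G07Rik (r = 0.993 each). Igf1 was nearest to Irs1 (r = 0.991), the receptor's adaptor and a gene of the pathway list, then to Usp29 (r = 0.976) and Slit2 (r = 0.974). Genes near Igf1r included Bach2 (r = 0.990) and Colec12 (r = 0.981). Igfbp7 was nearest to Sel1l3 (r = 0.980), Jun (r = 0.980) and Fos (r = 0.967), the last 2 of them immediate early genes. Igfbp3, the steadiest gene, had the loosest neighbours, among them 4930579G24Rik (r = 0.910) and Slc39a9 (r = 0.906).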

How the data were processed

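Poly(A) RNA-seq of 9 libraries was used. Per the study's methods, the authors trimmed reads with Cutadapt, aligned them with HISAT2 (2.0.1) to GRCm39 and counted them per gene with HTSeq (0.6.1); versions are from the submitters' processing notes. The deposited files hold raw counts and FPKM, the authors' values per library. FPKM was used only to compare levels between genes. The strand setting is not given in the sources used here.

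Groups came from the labels. Counts were tested as deposited in edgeR (4.0.16, R 4.3.3) by the quasi-likelihood F test on all 9 libraries, with a term per group, TMM factors (0.969 to 1.03), filterByExpr and Benjamini-Hochberg adjustment over 16903 genes. CPM was computed from the counts and the library totals over the genes tested, multiplied by the TMM factors. The filter's 0.573 CPM refers to the unscaled library totals. A library total of 13702162 counts or more limits genes such as Igfbp6, Igfbp7 and Igf1 to few counts. Scripts were tested on simulated data. Alternatives were DESeq2 (1.42.0), other scalings and filters, GC and length offsets, a replicate block, thinned counts and each library left out.

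The members and lists were chosen with earlier results of these data known. Named were all 8 genes in each comparison, at most 8 called pathway genes per comparison by adjusted p, the 3 nearest genes per member, and Nrf1, Prdm1 and Dppa3 as checks. Some genes that this rule names are not reported here. Pik3r2, and Pik3r1 in BV+ against BV- cells, as well as the marker genes named, fall outside this rule and were chosen after their values were seen, as were Igf2r and Polr2b. Protein sequences and coordinates in GRCm39 were not used here.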

Additional observations from a re-analysis of the deposited data

Results flagged for a closer look

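Pik3r3, a PI3K regulatory subunit gene of the pathway list, moved in opposite directions with NRF1 OE, with a log2 fold change of 0.23 in BV+ cells and -0.51 in BV- cells, where every NRF1 OE library lay above the Ctrl libraries in BV+ cells and below them in BV- cells. The difference had an unadjusted p of 0.0242 and an edgeR adjusted p of 0.776, so it did not pass the correction over all genes.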

How the results depend on the processing

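With 2 or 3 libraries per group, calls near the threshold depended on single libraries and on the treatment of the base composition trend, and Igfbp6, with 9 counts or fewer per library, could not be tested. Of 337 values of the 7 genes under settings other than leaving out a library, 311 kept direction and side of the threshold, 9 lost and 9 gained a call and 8 reversed. The causes of changes were not tested. For NRF1 OE in BV+ cells, the number of the 7 genes called was 0 with a replicate block, 5 with GC and length offsets and 5 with both, against 3, where 3, 2125 and 1284 of all 16903 genes were called against 1355. In BV- cells it was 2 with DESeq2, 2 without a filter, and 0 with only the groups compared, the block, the offsets or both, against 1. Of all genes, 4166 were called with DESeq2, 4392 of 33142 without a filter, 0 with only the groups compared and 0 with the block. With offsets 1443 and with both 480 were called, against 2910. For BV+ against BV- cells under Ctrl, 1 of the 7 genes was called with the block, against 2. With crossed replicate numbers in the 4 Ctrl libraries (an alternative chosen after seeing the data) it was 5. Of all genes, 121 were called with the block and 2079 of 16118 with crossed numbers, against 190. For the difference of effects, 1 of the 7 genes was called without a filter, where 108 of all 33142 genes were called. Of the pathway list in BV+ cells, 5 genes were called with DESeq2, 9 without a filter, 12 with only the groups compared, 0 with the block and 5 with offsets, against 3. Of all genes, 2126 were called with DESeq2, 3440 of 33142 without a filter and 4371 of 16286 with only the groups compared, against 1355. In BV- cells the number of the pathway list called was 0 with only the groups compared, 0 with the block, 2 with offsets and 0 with both, against 10. Under Ctrl it was 4 with only the groups compared, against 2, where 890 of all 16118 genes were called against 190. Under NRF1 OE it was 4 with the block and 16 with offsets, against 9, where 1064 and 3569 of all genes were called against 2325. For the difference of effects it was 1 without a filter, against 0. DESeq2 gave no adjusted p for Igf1 and Igfbp7 in some comparisons, which were left out. Deviations from the group means of 12 same-numbered pairs of libraries correlated at -0.295 to 0.243. In groups of 2 libraries these deviations mirror each other, so the values are not independent. They cannot decide whether the replicate numbers pair the libraries.

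Some signs turned. For NRF1 OE in BV- cells, the log2 fold change of Igf1 was -0.11 with thinned counts, and with GC and length offsets those of Igf1r, Igfbp3 and Igfbp7 were 0.30, -0.13 and -0.29. With the replicate block and offsets, Igf1r and Igfbp3 had 0.30 and -0.18. Igfbp2 in BV+ against BV- cells under Ctrl was 0.064 with offsets and 0.0622 with the block and offsets.

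Over the libraries left out in turn, the genes called ranged from 0 to 3 for NRF1 OE in BV+ cells, 0 to 1 in BV- cells, 1 to 2 for BV+ against BV- cells under Ctrl, 2 to 5 under NRF1 OE and 0 to 1 for the difference. For the pathway list the ranges were 0 to 13, 0 to 17, 0 to 2, 3 to 14 and 0 to 0. A library left alone in its group was assumed to vary like those of the other groups. Signs turned for NRF1 OE in BV- cells in Igf1 (-0.45 to 0.59), Igf1r (-0.10 to 0.027), Igfbp3 (-0.021 to 0.16) and Igfbp7 (-0.70 to 0.57), for BV+ against BV- cells under Ctrl in Igfbp2 (-0.10 to 0.025) and Igfbp3 (-0.022 to 0.16), under NRF1 OE in Igfbp2 (-0.16 to 0.50), and for the difference of effects in Igfbp2 (-0.14 to 0.52).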
